A study of Mus musculus with 12 samples.

Results

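D/F AML and T/F AML, 2 mouse models of acute myeloid leukemia that share a mutant Flt3 and differ in the second lesion, were compared with each other in cells that had received only the solvent DMSO. The comparison took in every gene with a mean of at least 1 TPM (an abundance of transcripts, relative to the library and corrected for length) in either group, which kept 15265 of the 15651 genes in the table and used 6 of the 12 libraries of the series. D/F mice were Dnmt3a fl/fl, Flt3 ITD/ITD, Mx1-Cre and T/F mice were Tet2 fl/fl, Flt3 ITD/ITD, Mx1-Cre, with 3 mice per genotype, so that the homozygous Flt3 internal tandem duplication and the Cre transgene were common to both groups. The cells were spleen cells of moribund animals, enriched for the surface receptor c-Kit with CD117 beads and kept for 6 h in medium with serum, SCF, IL6 and IL3. The 6 libraries of the same mice treated with CCS1477, an inhibitor of the acetyltransferases p300 and CBP, served only to show whether a difference was also seen in a second culture of the same cells.

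Some features of the model limit what a genotype label stands for. Mx1-Cre is driven by an interferon-responsive promoter. It was not induced with pIpC in these mice, which instead lose 1 or both floxed alleles spontaneously in hematopoietic cells, and the share of cells that had lost both was not measured here. No wild-type cells and no cells with the Flt3 duplication alone were analysed here, so each value sets one leukemia against the other and gives no direction relative to normal cells. The ages of the single mice were not given in the sources used here. The study reports a shorter median survival of T/F than of D/F mice, and the cells came from moribund animals. Age may therefore differ with genotype and cannot be told apart from it. The D/F libraries carried lower numbers in the sequencing run than the T/F libraries, so that genotype and the order of the libraries cannot be told apart.

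Dnmt3a is a de novo DNA methyltransferase that adds methyl groups to cytosines in CG dinucleotides, and Tet2 is a dioxygenase that oxidizes these methyl groups as a step towards their removal. Both genes are often mutated in clonal hematopoiesis and in AML, where they are often early lesions. Flt3 is a cytokine receptor of early progenitors, and its internal tandem duplication makes it signal without ligand through STAT5 and MAPK.

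TPM holds no read numbers, so the depth is unknown and the precision of each value rests on 3 mice per group. The 6 libraries summed to between 925204 and 931697 TPM. Library 2 of D/F stood apart from the other 5. It lay at 64.0 on the first principal component, which held 47.2% of the variance, whereas the others lay between −20.9 and 9.2, and the second component, with 23.1%, separated the genotypes. The SD of log2 values within the group was larger in D/F than in T/F for 80.9% of genes, with medians of 0.279 and 0.131. The summed level of 4 Y-linked genes was 147, 10.6 and 9.36 TPM in D/F against 177, 147 and 141 TPM in T/F, so 2 D/F libraries lacked most of a signal that all T/F libraries had. Counts and medians of gene groups are therefore given with and without D/F library 2. Tsix, on the X chromosome, had the opposite pattern, at 0.0807, 163 and 88.4 TPM in D/F and at no more than 0.392 TPM in T/F. The sexes of the mice are not in the labels. Sex may therefore differ between the groups, and its part cannot be told apart from that of genotype. A fit with the Y-linked level as a covariate sets T/F against D/F library 1 alone, so the part that the Y-linked difference plays was not tested.

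The targeted genes were examined first. Dnmt3a was at 29.3, 55.7 and 33.1 TPM in the 3 D/F libraries and at 39.9, 41.9 and 53.9 TPM in the 3 T/F libraries. The groups overlapped, and the difference of 0.24 (SE 0.27, T/F minus D/F on the log2(TPM + 1) scale used throughout) did not pass the test (adjusted p = 0.953, limma). Tet2 was at 41.9, 38.3 and 43.4 TPM in D/F and at 30.0, 35.8 and 34.4 TPM in T/F. All T/F values of Tet2 were below all D/F values, with a log2 difference of −0.30 (SE 0.12, adjusted p = 0.803). A sum over a whole gene does not show the loss of single exons, so neither value verifies or contradicts the deletion.

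Kit, Flt3 and Mpo, markers of the cells enriched here, were detected in all 6 libraries. Kit, the receptor used for the enrichment, was at 50.5, 149 and 60.9 TPM in D/F and at 55.5, 50.5 and 67.0 TPM in T/F. Flt3 was at 9.86, 46.0 and 25.9 TPM in D/F and at 18.2, 27.1 and 47.0 TPM in T/F, and Mpo, the peroxidase of early granules, was between 1160 and 3670 TPM in all of them. Kit, Flt3 and the progenitor marker Ly6a each had overlapping groups, as did Myc, Bcl2 and the CCS1477 targets Ep300 and Crebbp, with adjusted p between 0.811 and 0.988.

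Few genes differed between the leukemias by the test across all genes. Of 15265 genes, 2 were called higher in T/F (0.0131%) and 3 were called higher in D/F (0.0197%), where a called gene differed by more than 2-fold with an adjusted p below 0.05 (limma). The 2 genes higher in T/F were Rpl34-ps1 and Rpl34-ps2, and the 3 higher in D/F were Rpl34, Glrp1 and ENSMUSG00000073101. At an unadjusted p below 0.05, 387 genes (2.54%) were higher in T/F and 552 (3.62%) were higher in D/F, 6.15% of genes together, and 98 (0.642%) and 72 (0.472%) of them differed by more than 2-fold. The 3 T/F values lay above the 3 D/F values for 789 genes (5.17%) and below them for 1133 (7.42%). The median log2 difference over all genes was −0.04, and 42.2% of genes had the higher mean in T/F. Both figures turned when D/F library 2 was left out, to 0.03 and 56.8%, and 2688 genes (17.6%) and 1873 genes (12.3%) then did not overlap, with fewer libraries to keep apart.

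The largest differences were in a ribosomal protein gene and its processed copies. Rpl34 encodes a protein of the large ribosomal subunit and lies on the minus strand of chr3:130726831-130730398 (GRCm38). It was at 952, 1184 and 985 TPM in D/F and at 57.3, 47.2 and 61.4 TPM in T/F. All D/F libraries exceeded all T/F libraries, with a log2 difference of −4.21 (SE 0.16, adjusted p = 0.000837, limma). Rpl34-ps1 (ENSMUSG00000068396), annotated as a processed pseudogene at chr6:71124610-71124963 on the plus strand, went the other way. It was at 2.92, 3.41 and 2.26 TPM in D/F and at 1193, 1152 and 1148 TPM in T/F, a log2 difference of 8.25 (SE 0.14, adjusted p = 1.59e-05). Rpl34-ps2 (ENSMUSG00000061669), a processed pseudogene at chr13:116153781-116154134 on the plus strand, was listed at 0 in all D/F libraries and at 8.89, 7.25 and 4.34 TPM in T/F (adjusted p = 0.038).

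Rpl34 and Rpl34-ps1 share nearly all bases of the open reading frame, and Rpl34-ps2 differs from both at more positions. Over the 354 bases of the Rpl34 open reading frame, Rpl34-ps1 matched at 352 (99.44%) and Rpl34-ps2 at 344 (97.18%). Counted from the A of the start codon, the 2 changes of Rpl34-ps1 were T132C and C318G, and Rpl34-ps2 carried both of them and 8 others. Positions 121 to 330 of each copy, from the GENCODE vM21 transcripts, are shown because they hold both positions at which Rpl34 and Rpl34-ps1 differ, with capitals at every position where any copy differs from another.
Rpl34: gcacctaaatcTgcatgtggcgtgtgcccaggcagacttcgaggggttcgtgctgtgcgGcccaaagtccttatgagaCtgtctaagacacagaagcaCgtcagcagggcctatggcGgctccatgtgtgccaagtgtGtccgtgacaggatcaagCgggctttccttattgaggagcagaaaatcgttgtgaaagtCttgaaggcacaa
Rpl34-ps1: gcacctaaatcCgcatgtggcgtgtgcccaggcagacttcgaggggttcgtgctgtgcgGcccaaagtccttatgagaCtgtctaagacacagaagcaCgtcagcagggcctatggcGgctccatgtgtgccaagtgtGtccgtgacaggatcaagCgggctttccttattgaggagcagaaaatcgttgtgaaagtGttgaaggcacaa
Rpl34-ps2: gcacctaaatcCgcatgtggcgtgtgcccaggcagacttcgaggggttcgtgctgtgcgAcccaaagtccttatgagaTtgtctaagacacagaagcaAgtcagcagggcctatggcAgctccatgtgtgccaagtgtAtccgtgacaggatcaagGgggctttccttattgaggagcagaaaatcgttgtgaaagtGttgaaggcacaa
A read wholly within the 185 bases between the 2 capitals that separate Rpl34 from Rpl34-ps1 holds no base that assigns it to one of them. A read over either of these capitals does hold one. How the reads were divided among the copies was not tested, so the split of TPM remains uncertain.

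The sum over these 3 differed far less than each of them. A further processed copy in the table, Gm10086, with 98.3% identity to Rpl34-ps1, was below the filter at no more than 0.614 TPM in any DMSO library and is not in the sum. It was 955, 1188 and 987 TPM in D/F (1043 ± 126, SD, n = 3) and 1259, 1207 and 1213 TPM in T/F (1226 ± 28.4, SD, n = 3). All T/F sums were above all D/F sums, by 0.23 on the log2 scale, with an exact two-sided permutation p of 0.1, the smallest that 3 against 3 allows. Of this sum, Rpl34-ps1 took 0.306%, 0.287% and 0.229% in the D/F libraries but 94.7%, 95.5% and 94.6% in the T/F libraries. The share was thus nearly constant within a genotype and at opposite ends between them. The same division was present in the CCS1477 cultures, with log2 differences of −5.10 for Rpl34 and 7.68 for Rpl34-ps1.

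**Figure D1:**
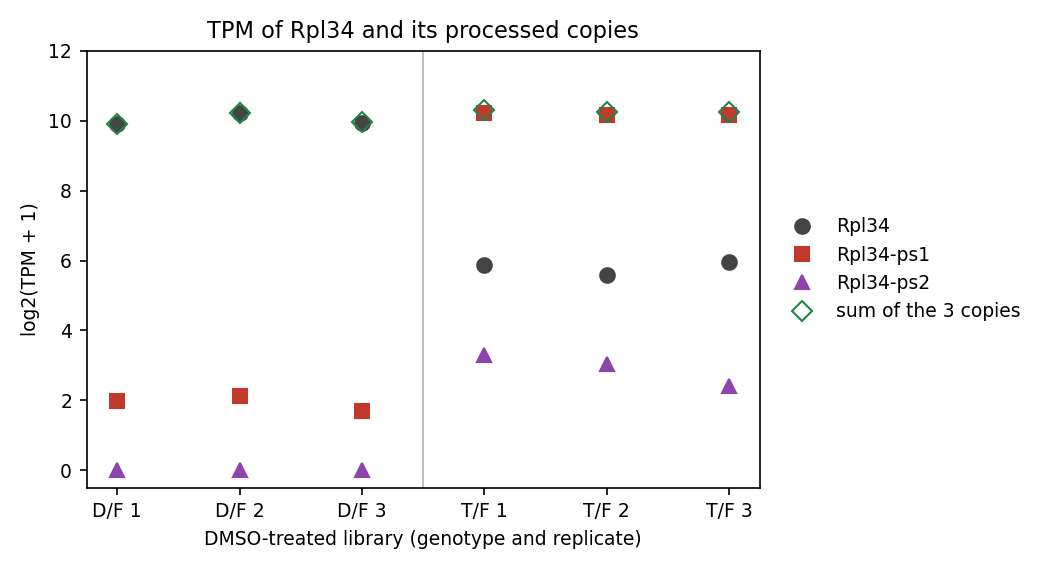
TPM, as log2(TPM + 1), of Rpl34 and its processed copies Rpl34-ps1 and Rpl34-ps2 in each of the 3 D/F and 3 T/F libraries treated with DMSO, with the sum of the 3. Rpl34 carried nearly all of the signal in D/F and Rpl34-ps1 nearly all of it in T/F, while the sums lay between 955 and 1259 TPM.

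Glrp1 was the called gene with no close copy found. It lies at chr1:88499871-88510066 on the minus strand and was at 23.7, 23.6 and 20.4 TPM in D/F and at 2.16, 1.13 and 1.61 TPM in T/F. The groups were far apart and tight, with a log2 difference of −3.18 (SE 0.17, adjusted p = 0.00624, limma), and leaving out any 1 library kept the call with a difference between −3.32 and −3.03. Its call was lost in a fit with Y-linked expression as a covariate, which sets T/F against D/F library 1 alone. ENSMUSG00000073101, which had no symbol or position in the annotation used, was at 4.66, 5.15 and 8.54 TPM in D/F and listed at 0 in every T/F library (adjusted p = 0.0349). Its call was lost without D/F library 2 and without any single T/F library, and in the CCS1477 cultures its difference turned to 1.19. Rpl34-ps2 lost its call when any library other than T/F library 3 was left out.

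With the called genes included, 161 genes differed by more than 2-fold with no overlap between the groups, 87 with T/F higher (0.57% of all genes) and 74 with D/F higher (0.485%). The Y-linked genes Uty and Ddx3y are among the 87. Of the 161 genes, 12 per direction were taken, first the called genes and then, in the order of p, others with a gene name and at least 5 TPM in the higher group. Being chosen by this comparison, they describe it and do not add evidence for it. Of the 24, 22 had the same direction in the CCS1477 cultures of the same mice and 21 also had no overlap there. The same count over all genes was not made, and cultures that share their mice are no replication.

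Among the genes higher in T/F, 4 described here are known from monocytes, macrophages or other myeloid cells. Pld4, an endolysosomal exonuclease of myeloid cells, was at 18.02, 19.6 and 16.9 TPM in D/F and at 46.5, 59.5 and 54.1 TPM in T/F, 1.497 apart on the log2 scale (SE 0.14, adjusted p = 0.0527). Ms4a6c, a membrane protein of the MS4A family found on monocytes, was at 27.4, 23.7 and 42.8 TPM in D/F and at 98.3, 105 and 101 TPM in T/F, 1.71 apart (SE 0.22, adjusted p = 0.184). Adgre1, which encodes the macrophage antigen F4/80, was at 7.43, 8.90 and 5.67 TPM in D/F and at 15.3, 19.2 and 20.5 TPM in T/F. For each of the 3 genes every T/F library was above every D/F library, and none passed the test. The C-type lectin gene Clec4a3 spanned 1.86 to 4.12 TPM in D/F against 9.12 to 10.7 TPM in T/F.

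Ccl1 encodes a chemokine, and it was at 0.639, 1.05 and 0 TPM in D/F and at 10.8, 7.13 and 10.4 TPM in T/F (log2 difference 2.78, SE 0.30, adjusted p = 0.107). Igkc, the constant segment of the immunoglobulin kappa chain, spanned 5.35 to 9.37 TPM in D/F against 20.4 to 27.2 TPM in T/F, a log2 difference of 1.58. Ugt1a6a, a glucuronosyltransferase, was at 4.71, 5.48 and 3.31 TPM in D/F and at 15.9, 19.9 and 13.5 TPM in T/F. Rab3il1, an exchange factor for Rab GTPases, was 1.69 higher in T/F with DMSO, but its difference in the CCS1477 cultures was −0.02. Rpl30-ps9, a processed copy of the ribosomal gene Rpl30 with 99.4% identity to it, was 1.49 higher in T/F, whereas Rpl30 itself differed by −0.08. How the reads were divided between the pair was not tested.

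Among the genes higher in D/F, Inppl1, a phosphatase of inositol lipids known as SHIP2, was at 13.2, 10.4 and 10.1 TPM in D/F and at 1.498, 2.33 and 2.43 TPM in T/F. The groups did not overlap, and the log2 difference of −1.99 (SE 0.18, adjusted p = 0.0527, limma) lay just outside the threshold. Vcam1, an adhesion molecule that binds the integrin VLA-4, was at 12.6, 6.25 and 7.82 TPM in D/F and at 1.77, 1.33 and 0.92 TPM in T/F (log2 difference −2.04, SE 0.27, adjusted p = 0.184). Padi4, which converts arginine to citrulline in histones of neutrophils, was at 132, 124 and 88.7 TPM in D/F and at 54.7, 43.2 and 37.5 TPM in T/F (−1.33, SE 0.21, adjusted p = 0.295). Rnf125, a ubiquitin ligase, was tight in both groups, at 38.4, 34.96 and 33.0 TPM against 16.9, 15.1 and 17.8 TPM (−1.05, SE 0.12, adjusted p = 0.144).

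Cd63, a tetraspanin of granule and lysosome membranes, was at 186, 242 and 174 TPM in D/F and at 89.0, 82.2 and 118 TPM in T/F, and Clec11a, a secreted growth factor for hematopoietic cells, spanned 6.11 to 8.93 TPM in D/F against 2.61 to 4.09 TPM in T/F. BC064078, annotated as a transcribed pseudogene, was at 64.0, 42.1 and 73.5 TPM in D/F and at 12.8, 10.1 and 18.9 TPM in T/F. Amd2 and Rps4l, copies of a polyamine synthesis gene and of a ribosomal protein gene, differed by −1.85 and −1.81. Amd2 shares 100% of 656 aligned bases with Amd1, which was at a mean of 115 TPM in D/F and 129 TPM in T/F.

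**Figure D2:**
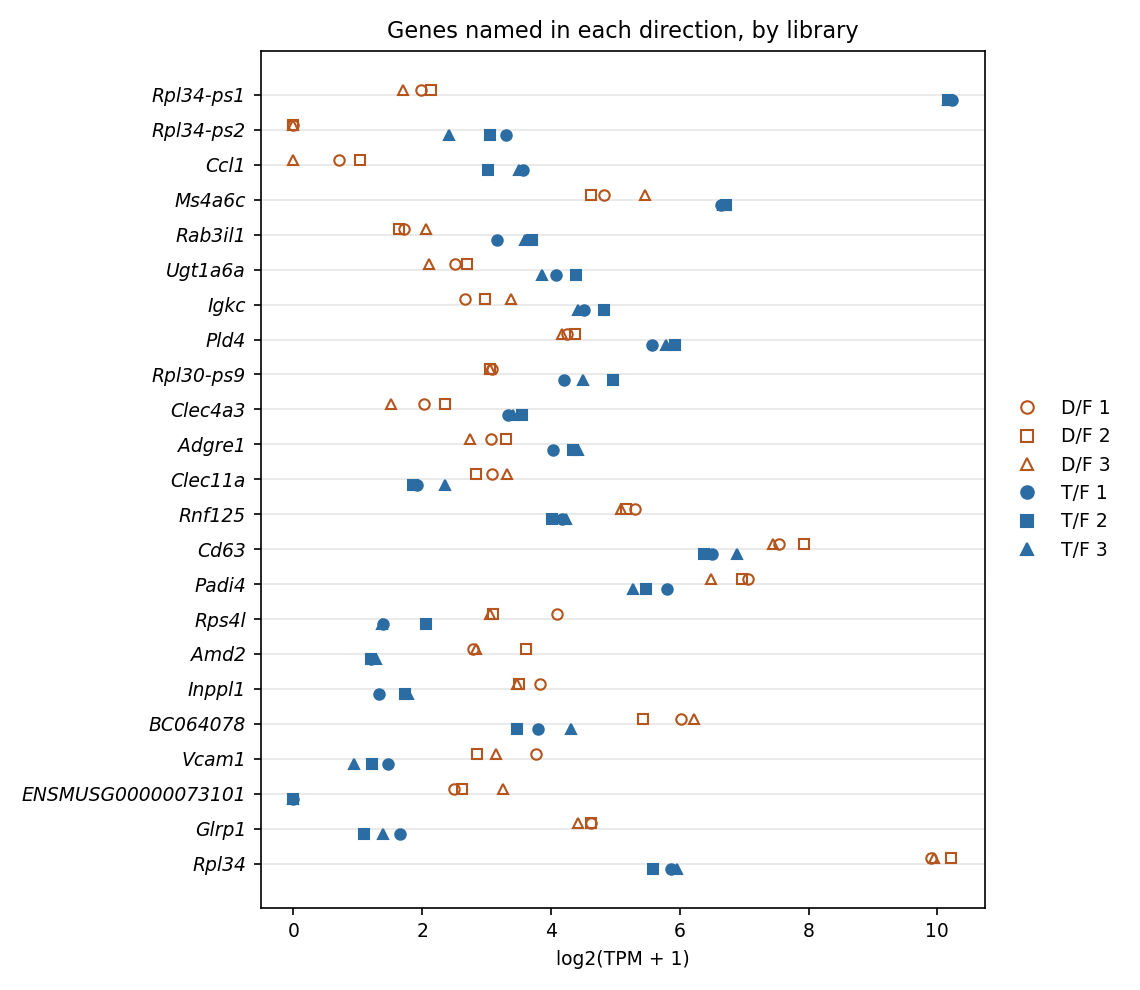
Expression, as log2(TPM + 1), of the genes named in each direction in each DMSO library, D/F and T/F marked separately. In every gene shown the 3 libraries of one genotype lie on one side of the 3 libraries of the other, with the widest gap in Rpl34-ps1.

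Since both lesions concern methylation of CG dinucleotides, the 250 bases before the start are shown for Inppl1 and Pld4, the named genes closest to the threshold without passing it, and for Ms4a6c, the monocyte list member with the smallest p, with each CG in capitals. They are from RefSeq on GRCm38.p6, and DNA methylation was not measured in these libraries. Inppl1 (chr7:101838227-101838476, minus strand) had 11 CG, Ms4a6c (chr19:11469118-11469367, plus strand) had 2 and Pld4 (chr12:112760405-112760654, plus strand) had 3.
Inppl1: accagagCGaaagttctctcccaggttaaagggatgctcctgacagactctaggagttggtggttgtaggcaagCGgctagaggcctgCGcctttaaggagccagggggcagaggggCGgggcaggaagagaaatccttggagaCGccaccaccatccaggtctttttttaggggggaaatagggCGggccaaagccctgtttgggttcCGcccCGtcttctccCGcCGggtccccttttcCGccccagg
Ms4a6c: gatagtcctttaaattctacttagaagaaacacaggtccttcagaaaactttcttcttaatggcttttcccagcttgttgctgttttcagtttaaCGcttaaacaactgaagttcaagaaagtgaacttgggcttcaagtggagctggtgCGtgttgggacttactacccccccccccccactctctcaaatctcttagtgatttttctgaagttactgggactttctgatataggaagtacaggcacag
Pld4: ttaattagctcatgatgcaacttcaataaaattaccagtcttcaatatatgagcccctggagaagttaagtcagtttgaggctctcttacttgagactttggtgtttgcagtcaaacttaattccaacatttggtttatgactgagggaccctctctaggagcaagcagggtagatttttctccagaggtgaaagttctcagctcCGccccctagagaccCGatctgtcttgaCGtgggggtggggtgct
Over the 10449 tested genes with a promoter in the table the median was 15 CG and the quartiles 8 and 22. As few CG as in Inppl1 or fewer were found in 36.8% of these promoters, as few as in Pld4 in 12% and as few as in Ms4a6c in 8.04%. The promoters of Pld4 and Ms4a6c were thus among the CG-poor ones.

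Near-identical copies were found for some of the separated genes. Of the 161 genes, 153 had a transcript to align, and 39 of these (25.5%) had a second gene in the table with at least 95% identity over at least 50% of the shorter transcript. The share over the other tested genes was 13.5% (1996 of 14739). It was 23.8% of the separated genes higher in T/F and 27.5% of those higher in D/F. For these genes the value may depend on how reads were divided between copies, which was not tested, and some of the aligned stretches were short. Gm10146, a copy of Lsm7 with 100% identity over 309 bases, is an example chosen after its values were seen: it was at or near 0 in D/F and at 21.5, 24.03 and 72.2 TPM in T/F, while Lsm7 was at 147, 101 and 171 TPM and at 128, 122 and 75.2 TPM. In the CCS1477 cultures the difference in Gm10146 was −0.07.

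Of 5 very large interferon-inducible GTPase genes on chromosome 7, also described after their values were seen, 3 divided by genotype with differences above 2-fold. Gm1966 was at 7.16, 42.8 and 6.17 TPM in D/F and at 131, 136 and 128 TPM in T/F, and Gvin1 was at 15.8, 48.4 and 11.2 TPM and at 79.5, 82.7 and 85.5 TPM. Gm4070 went the other way, at 49.2, 6.96 and 28.6 TPM in D/F and 3.58, 2.63 and 1.80 TPM in T/F. D/F library 2 lay nearer to T/F than the other D/F libraries did in all 3 genes. Gm8995 differed less, at 115, 110 and 100.1 TPM against 140, 137.5 and 142 TPM, and Gm4759 overlapped, at 11.1, 29.2 and 12.1 TPM against 13.2, 11.3 and 15.8 TPM. Gm4070 and Gvin1 share 330 identical bases. The sum over the 5 members of the family did not overlap between the groups, at 198, 238 and 158 TPM in D/F and 367, 371 and 373 TPM in T/F (exact permutation p = 0.1, the smallest possible).

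Of the 153 separated genes with a position, 78 (51%) were within 1 Mb of another, in 30 groups. Of the other tested genes, 18.2% lay within 1 Mb of a separated gene. Genes within such a group were not all separated. On chromosome 19 a stretch of 29 tested genes held 6 of them, all higher in T/F, namely Ms4a4c, Ms4a6b, Ms4a6c, Ms4a6d, Rab3il1 and Tmem109. Ms4a6d was at 16.0, 5.40 and 22.2 TPM in D/F and at 38.2, 57.9 and 38.9 TPM in T/F. The lectin genes Clec4a1, Clec4a3 and Clec4n on chromosome 6 were all higher in T/F, by 2.09, 1.46 and 1.95 on the log2 scale. On chromosome 1, 5 entries of the Ugt1a locus were higher in T/F next to Glrp1, which was higher in D/F. The Ugt1a genes share exons, and Ugt1a7c of the same locus had overlapping groups, with a difference of 0.05. The class I genes H2-Q5, H2-Q6 and H2-Q7 on chromosome 17 were lower in T/F by 1.43, 1.15 and 1.23 and share long stretches of sequence.

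Cell type programs were described with gene lists from general knowledge, by the number of members higher in each group beside the 42.2% of all genes that were higher in T/F. The lists were chosen with earlier results of these data known, so their counts describe this comparison and do not add evidence for it. No member of the lists named by cell type or function was called. In bulk RNA, fewer cells of a type and less RNA per cell cannot be told apart. Monocyte and macrophage genes were mostly higher in T/F. Of 24 tested members, 22 were higher in T/F and 2 in D/F, with a median log2 difference of 0.80, and 9 were higher in T/F with no overlap, against 5.17% of all genes. Without D/F library 2 the counts were again 22 and 2, the median was 0.63, 13 were higher in T/F with no overlap, against 17.6% of all genes, and 1 was higher in D/F with no overlap. With Y-linked expression as a covariate, which sets T/F against D/F library 1 alone, 21 of 24 were higher in T/F and the median was 0.59.

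Within the monocyte list, Ccr2, the chemokine receptor by which monocytes leave the marrow, was at 142, 99.3 and 114 TPM in D/F and at 242, 342 and 245 TPM in T/F (log2 difference 1.21, SE 0.20, adjusted p = 0.302). Psap, a lysosomal protein, was at 462, 313 and 286 TPM in D/F and at 616, 827 and 644 TPM in T/F, and Ctss, a lysosomal cathepsin, at 56.0, 100 and 101 TPM and at 125, 198 and 256 TPM. Fcgr1, Fn1, Cd68, Ms4a6c and Adgre1 were likewise without overlap. Csf1r, the receptor for macrophage colony-stimulating factor, overlapped at 18.5, 29.0 and 14.3 TPM against 27.8, 43.0 and 47.5 TPM. The list was not uniform: Ly6c2, which encodes the Ly6C antigen of inflammatory monocytes, was at 1160, 360 and 557 TPM in D/F and at 429, 326 and 213 TPM in T/F, and Cd14 stayed below 5 TPM in all libraries. Because Ly6c2 is so abundant, the summed TPM of the list overlapped between the groups, at 1578 to 2545 TPM in D/F and 2300 to 2975 TPM in T/F.

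Genes of the innate inflammatory response were also mostly higher in T/F. Of 22 tested, 18 were higher in T/F (median 0.39) and 5 did not overlap, all with T/F higher, against 5.17% of all genes. When D/F library 2 was left out, 19 were higher in T/F (median 0.595), 11 of them without overlap against 17.6% of all genes, and 1 gene was higher in D/F without overlap. Tlr2, a receptor for bacterial lipoproteins, was at 12.1, 12.4 and 18.4 TPM in D/F and at 26.7, 38.0 and 24.9 TPM in T/F. The inflammasome sensor Nlrp3 spanned 7.59 to 17.1 TPM in D/F against 17.98 to 28.7 TPM in T/F, and Tnf spanned 15.1 to 19.6 TPM against 20.0 to 24.3 TPM. Of the immediate early and heat shock list, 18 of 20 were higher in T/F with a median of 0.20, and 14 of 20 without D/F library 2. Zfp36, which destabilizes cytokine mRNAs, and the AP-1 subunits Fos and Jund did not overlap, all with T/F higher, against 5.17% of all genes. Among cytokine receptors and surface antigens, 11 of 33 were higher in T/F, and 26 of 33 without D/F library 2. Both chains of the IL6 receptor were higher in T/F without overlap, 2 of 33 against 5.17% of all genes, and 1 member was higher in D/F, against 7.42%. Il6st was at 34.3, 22.2 and 39.1 TPM in D/F and at 58.3, 95.2 and 62.5 TPM in T/F, Il6ra at 22.8, 18.03 and 21.5 TPM and at 36.0, 44.5 and 27.5 TPM, and IL6 was present in the medium of both groups.

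Genes of antigen presentation through MHC class II were higher in T/F in 9 of 11 cases, with a median of 0.57 and no member without overlap. The invariant chain Cd74 shows the spread, at 265, 1340 and 846 TPM in D/F and at 709, 874 and 2060 TPM in T/F. The class II transactivator Ciita was at 4.45, 24.9 and 11.2 TPM and at 12.8, 15.7 and 39.0 TPM. The median lay between 0.06 and 0.88 when 1 library was left out, and without D/F library 2 all 11 were higher in T/F and 4 did not overlap, against 17.6% of all genes. The dendritic cell list had 11 of 15 higher in T/F and a median of 0.31. These became 14 of 15 and 0.74 without D/F library 2, and over all libraries left out in turn the median lay between −0.25 and 0.74.

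Mast cell and basophil genes were mostly higher in D/F. Of 14 tested, 13 were higher in D/F and 1 was higher in T/F, with a median of −0.75, and 6 did not overlap, all with D/F higher, against 7.42% of all genes. Without D/F library 2 the counts were 10 and 4, the median was −0.54 and 7 did not overlap, against 12.3% of all genes. The Y-linked covariate, which sets T/F against D/F library 1 alone, gave 4 higher in T/F and a median of −0.48. Mcpt8, a protease of basophils, was at 62.2, 71.0 and 49.0 TPM in D/F and at 23.6, 21.4 and 36.8 TPM in T/F (−1.15, SE 0.25, adjusted p = 0.447). Hdc, which makes histamine, was at 14.8, 12.7 and 13.7 TPM in D/F and at 8.42, 7.52 and 7.07 TPM in T/F. Gzmb, Cyp11a1, Cd200r3 and Slc18a2 also did not overlap, and Gzmb, a granule serine protease located near Mcpt8 on chromosome 14, was at 19.07, 16.3 and 13.1 TPM and at 5.44, 2.89 and 7.66 TPM. Cpa3, the mast cell carboxypeptidase, overlapped at 24.7, 105 and 26.1 TPM against 21.6, 12.1 and 35.05 TPM.

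Genes of primary granules and of granulocyte-monocyte progenitors were higher in D/F in 16 of 20 cases, with a median of −0.32, and in all 20 without D/F library 2, with a median of −0.53 and 15 without overlap, against 12.3% of all genes. In the CCS1477 cultures the median of this list turned to 0.19. D/F library 2 had by far the least of the abundant proteases among D/F libraries: Elane, neutrophil elastase, was at 2480, 454 and 1520 TPM in D/F and at 1040, 937 and 561 TPM in T/F. The 6 members without overlap, all with D/F higher, against 7.42% of all genes, were instead Cd63, Srgn, Csf3r, Hk3, Rab44 and Cebpa. Srgn, the proteoglycan core of granules, was at 1150, 808 and 914 TPM in D/F and at 678, 592 and 609 TPM in T/F. Csf3r, the receptor for G-CSF, was at 81.0, 117 and 71.0 TPM and at 49.8, 49.5 and 56.2 TPM. Cebpa, a transcription factor of granulocyte commitment, was closer, at 144, 137 and 127 TPM and at 118, 107 and 111 TPM.

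Genes of later granules and mature neutrophils were divided, with 15 of 24 higher in D/F and a median of −0.10, which moved between −0.58, without D/F library 2, and 0.20 when 1 library was left out. S100a8, an abundant calcium-binding protein of neutrophils, was at 4680, 1370 and 3020 TPM in D/F and at 4010, 3100 and 1380 TPM in T/F. Ly6g, the antigen used to define mouse neutrophils, was higher in T/F, at 30.3, 29.0 and 4.77 TPM against 3.12, 1.68 and 2.06 TPM in D/F. Lyz2, lysozyme of macrophages and neutrophils, was also higher in T/F, at 801, 882 and 509 TPM against 356, 300 and 344 TPM, while Padi4 was higher in D/F.

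**Figure D3:**
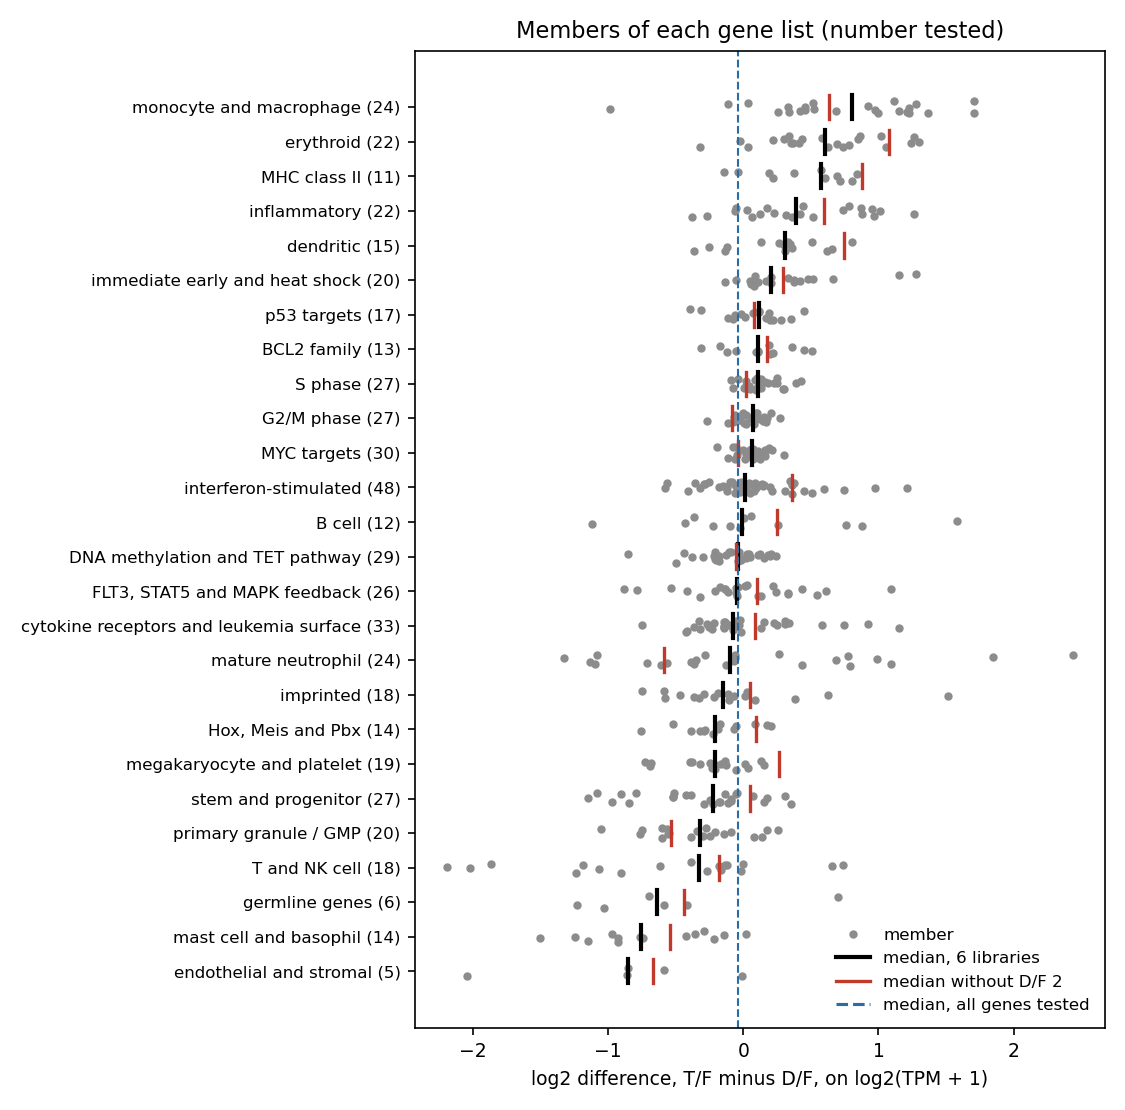
Log2 difference (T/F minus D/F, on log2(TPM + 1)) of each tested member of the gene lists, with the median of each list and the median of all genes. Monocyte members lie mostly above 0 (median 0.80), and mast cell and basophil members mostly below it (median −0.75).

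Erythroid genes were higher in T/F in 20 of 22 cases with a median of 0.60, at low levels. Klf1, the erythroid transcription factor, was at 1.22, 3.16 and 1.34 TPM in D/F and at 7.36, 5.39 and 2.39 TPM in T/F, and Slc4a1, the anion exchanger of red cells, was the only member without overlap, at up to 0.251 TPM in D/F and 0.736 to 3.04 TPM in T/F. The globin genes Hba-a2, Hbb-bs and Hbb-bt were under 6 TPM in every library. Without D/F library 2 the erythroid median was 1.08 and 17 members did not overlap, all with T/F higher, against 17.6% of all genes. Megakaryocyte genes were higher in D/F in 15 of 19 cases, which turned to 15 of 19 higher in T/F without D/F library 2. That library held 121 TPM of Itga2b, the platelet integrin CD41, against 19.07 and 25.7 TPM in the other D/F libraries and 19.9 to 30.2 TPM in T/F. Nfe2, a transcription factor of platelet formation, was the member without overlap, at 243, 281 and 162 TPM in D/F and 152, 134 and 128 TPM in T/F.

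The stem and progenitor list behaved in the same way. Of 27 tested, 22 were higher in D/F with a median of −0.23, and without D/F library 2, 16 were higher in T/F with a median of 0.05. Cd34 was at 110, 447 and 138 TPM in D/F and at 121, 95.03 and 202 TPM in T/F, and Meis1, a partner of Hox factors, at 36.2, 135 and 36.3 TPM and at 36.7, 31.0 and 52.6 TPM. Of the 27, the 3 without overlap, against 7.42% of all genes, were Myb, Mycn and Erg, all transcription factors of hematopoietic progenitors and all higher in D/F. Myb was at 332, 406 and 298 TPM in D/F and at 247, 218 and 252 TPM in T/F (−0.52, SE 0.15, adjusted p = 0.627). Mycn was at 20.2, 46.4 and 24.3 TPM and at 14.2, 9.12 and 16.5 TPM, and Erg at 38.4, 76.4 and 40.2 TPM and at 23.2, 21.6 and 34.1 TPM. The 3 remained lower in T/F without D/F library 2, by −0.40, −0.74 and −0.59. In that setting 3 members of the list were higher in D/F and 2 higher in T/F without overlap, against 12.3% and 17.6% of all genes. Hoxa9 overlapped, at 35.7, 39.0 and 40.8 TPM in D/F and 32.5, 28.1 and 38.4 TPM in T/F. Of the 14 tested members of the Hox, Meis and Pbx list, 11 were higher in D/F, 4 without D/F library 2, and with all libraries none was without overlap.

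**Figure D4:**
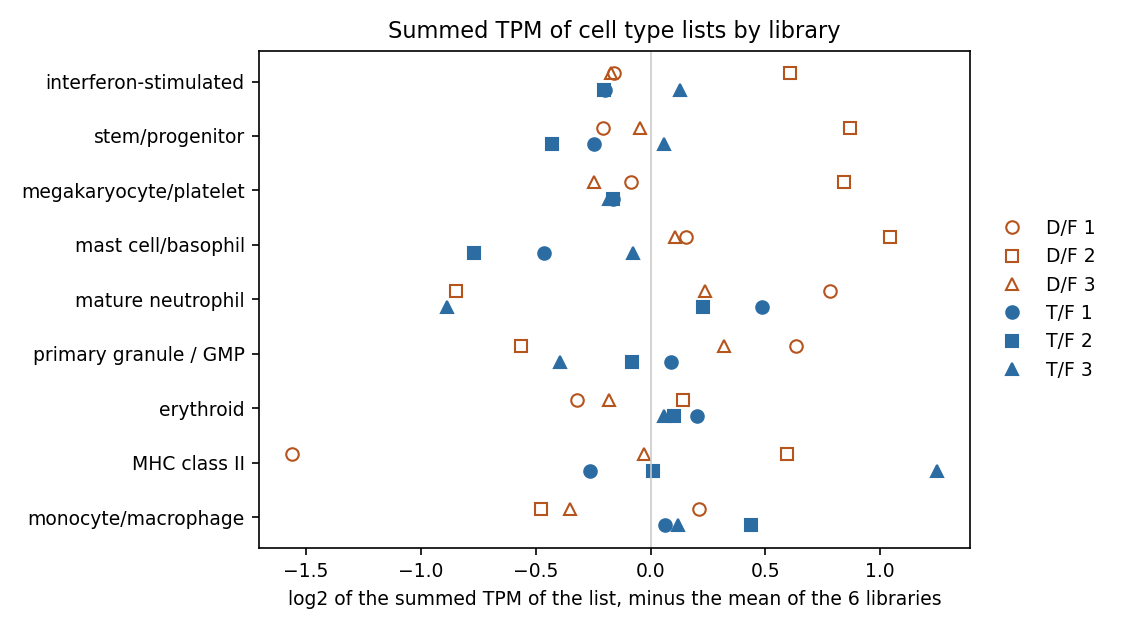
Summed TPM of 9 gene lists in each DMSO library, as log2 minus the mean of the 6 libraries. D/F library 2 has the lowest granule sums of D/F and the highest stem and megakaryocyte sums of all 6 libraries.

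Lymphoid genes were present at low to moderate levels in both groups. Of 18 tested T and NK cell genes, 16 were higher in D/F with a median of −0.33, and 5 of these did not overlap, against 7.42% of all genes. Without D/F library 2, 10 were higher in D/F, 6 of them without overlap against 12.3% of all genes. The constant segments of the gamma chain of the T cell receptor stood out: Tcrg-C2 was at 27.2, 20.4 and 9.54 TPM in D/F and at 3.18, 1.12 and 6.46 TPM in T/F (−2.19, SE 0.55, adjusted p = 0.522). Klrb1c, the NK1.1 antigen, was at 1.27, 2.34 and 8.54 TPM in D/F and under 0.1 TPM in T/F. The signaling subunit Cd3d, by contrast, spanned 8.65 to 14.9 TPM in D/F against 7.96 to 10.1 TPM in T/F. Of 12 tested B cell genes, 6 were higher in each group, and 8 were higher in T/F without D/F library 2. Igkc, Pax5 and Ighm were higher in T/F without overlap, against 5.17% of all genes. Pax5, a factor of B cell identity, was at 0.368, 0.445 and 0.374 TPM in D/F and 2.38, 1.42 and 1.05 TPM in T/F. Cr2, complement receptor 2, was without overlap in the other direction, against 7.42% of all genes. It was at 2.97, 4.46 and 2.39 TPM in D/F and 2.13, 2.17 and 2.00 TPM in T/F. Of 18 endothelial and stromal genes 5 were tested, all higher in D/F (4 of them without D/F library 2), and Vcam1, Pecam1 and Ccl19 did not overlap, against 7.42% of all genes. Pecam1, which leukocytes also express, was at 107, 149 and 92.8 TPM in D/F and at 60.4, 56.2 and 71.5 TPM in T/F. The other 13, among them Cdh5 and Kdr, had no entry under these symbols in the table, which holds only genes above 2.00 TPM in at least 1 library. The part of other cell types in these differences was not tested.

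The enzymes and readers of DNA methylation overlapped between the leukemias with few exceptions. Of 29 tested, 11 were higher in T/F, with a median of −0.04 equal to that of all genes. Without D/F library 2, 13 were higher in T/F with a median of −0.05, against 0.03 for all genes. Dnmt1, the maintenance methyltransferase, was at 96.1, 86.8 and 119 TPM in D/F and at 103, 101 and 100 TPM in T/F. Dnmt3b was at 24.6, 56.3 and 29.1 TPM and at 29.6, 24.1 and 36.2 TPM. Tet3 was at 45.1, 63.3 and 54.0 TPM and at 52.3, 53.9 and 57.2 TPM. Besides Tet2, the methyl-CG binding factor Zbtb38 and the chromatin remodeler Hells did not overlap, the first higher in D/F (−0.50) and the second higher in T/F (0.20).

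Of 30 germline genes known to be silenced by DNA methylation 6 were tested, and 5 of these were higher in D/F, also without D/F library 2, with medians of −0.64 and −0.44. Besides Tdrkh and Dpep3, the tested members were Xlr3a, Xlr3b, Xlr4a and Xlr4b, all of an X-linked family. Xlr3a and Xlr3b share 99.7% of 592 aligned bases, so these members are not independent of each other. The rest of the 30, among them Dazl, Ddx4 and Sycp3, had no entry in the table or were below the filter. Xlr3a and Xlr4b did not overlap, both with D/F higher, against 7.42% of all genes. Xlr4b was at 19.3, 26.6 and 18.4 TPM in D/F and at 12.7, 10.1 and 15.9 TPM in T/F, and Xlr3a at 4.80, 3.13 and 5.20 TPM and at 0.741, 1.53 and 2.93 TPM. Imprinted genes, whose expression from 1 parental allele is set by methylation, had 6 of 18 higher in T/F and a median of −0.15, and 10 of 18 and 0.05 without D/F library 2. Plagl1, an imprinted zinc finger factor, was at 0.268, 1.36 and 0.451 TPM in D/F and at 4.52, 3.49 and 3.08 TPM in T/F (1.51, SE 0.26, adjusted p = 0.314). Igf2, Sgce and Gnas were higher in D/F without overlap, against 7.42% of all genes. Plagl1 and Igf2r were higher in T/F without overlap, against 5.17%. Igf2r was at 1.78, 2.67 and 2.22 TPM in D/F and at 2.71, 2.97 and 3.89 TPM in T/F.

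Interferon-stimulated genes turned on 1 library. Of 48 tested, 25 were higher in T/F with a median of 0.01, and without D/F library 2, 43 were higher in T/F with a median of 0.36. Of these, 23 did not overlap, against 17.6% of all genes in the same count, and 1 gene was higher in D/F without overlap. Ifi204, a DNA sensor, was at 1.29, 2.96 and 1.33 TPM in D/F and at 3.06, 5.11 and 5.49 TPM in T/F. Ly6e was without overlap in the other direction, at 504, 724 and 545 TPM in D/F and 413, 353 and 423 TPM in T/F.

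Growth programs had medians near 0. S phase genes were higher in T/F in 24 of 27 cases, but by a median of only 0.11, and in 17 of 27 without D/F library 2. G2/M genes turned from 18 of 27 higher in T/F to 4 of 27 in the same check, and MYC targets from 23 of 30 to 9 of 30, with medians between −0.08 and 0.07. Nucleophosmin, Npm1, shows how much rests on that library, at 2030, 1200 and 2380 TPM in D/F and 2140, 2090 and 2000 TPM in T/F. BCL2 family genes had 9 of 13 higher in T/F with a median of 0.11, and p53 targets 11 of 17 with 0.12, and without D/F library 2 these were 11 of 13 with 0.18 and 13 of 17 with 0.08. Pmaip1, the pro-apoptotic protein NOXA, was at 30.9, 35.8 and 27.1 TPM in D/F and at 35.2, 40.7 and 54.7 TPM in T/F.

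Feedback and target genes of the Flt3, STAT5 and MAPK pathways were evenly divided, with 12 of 26 higher in T/F and a median of −0.04, and 17 of 26 higher without D/F library 2. The MAPK feedback genes Spry1, Spred2 and Dusp6 and the ETS factor Etv5 were higher in D/F without overlap, 4 of 26 against 7.42% of all genes. Dusp6, a phosphatase of ERK, was at 19.08, 36.4 and 11.3 TPM in D/F and at 9.82, 10.9 and 10.5 TPM in T/F, and Etv5 at 16.2, 12.4 and 11.3 TPM and at 7.21, 9.60 and 9.84 TPM. Osm and Socs3, genes of JAK-STAT signaling, were higher in T/F without overlap, 2 of 26 against 5.17% of all genes. Socs3, an inhibitor of IL6 receptor signaling, was at 29.4, 10.1 and 28.4 TPM in D/F and at 30.8, 53.6 and 54.3 TPM in T/F. None of the 6 passed the test, with adjusted p between 0.646 and 0.895.

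Genes within 10 Mb of the modified loci were also examined. Around Tet2 (chr3:133463679-133545139, minus strand), 32 of 63 tested genes were higher in T/F with a median of 0.01, and 7 (11.1%) did not overlap, against 12.6% of all genes in either direction. Rpl34 lies in this window, 2.78 Mb from Tet2. Alpk1, a kinase that senses a bacterial sugar, was at 6.68, 8.37 and 4.45 TPM in D/F and at 16.6, 18.9 and 14.0 TPM in T/F (1.25, SE 0.23, adjusted p = 0.352), and Tifa, its signaling partner in the same region, overlapped. The histone variant gene H2afz was at 613, 571 and 648 TPM in D/F and at 773, 748 and 771 TPM in T/F. Around Dnmt3a (chr12:3806007-3914443, plus strand), 13 of 43 were higher in T/F with a median of −0.08, and 4 (9.3%) did not overlap, against 12.6% of all genes in either direction. These 4, Kif3c, Dtnb, Cenpo and Mycn, were all higher in D/F. Around Flt3, which is modified alike in both groups, 70 of 155 were higher in T/F with a median of −0.03, and 21 (13.5%) did not overlap. The shares around Tet2 and Flt3 lay near that of all genes, and the share around Dnmt3a was no higher than it. When D/F library 2 was left out, 34 of 63, 22 of 43 and 94 of 155 were higher in T/F, and 28.6%, 30.2% and 31.6% did not overlap, against 29.9% of all genes.

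**Figure D5:**
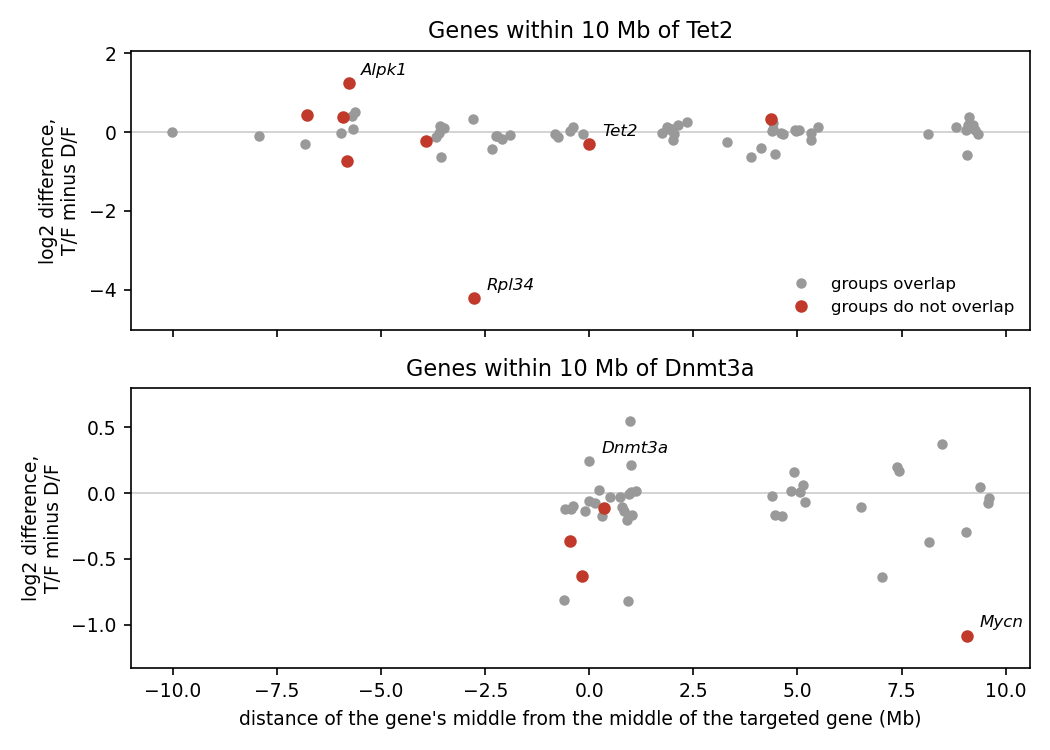
Log2 difference (T/F minus D/F) of tested genes against their distance in Mb from the middle of Tet2 (top) and of Dnmt3a (bottom). Rpl34, at −4.21, is the only called gene plotted, and most others lie near 0.

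The genotype difference was also examined with CCS1477, which was given at 4 μM to D/F and 2 μM to T/F cells. The test of whether the difference changed between the treatments called 0 of 15265 genes (0%), with a lowest adjusted p of 0.152 and 2241 genes at an unadjusted p under 0.05 (limma). At the same unadjusted limit the DMSO comparison had 939 genes, so the lack of calls does not show that the difference stayed the same. Since the dose differed between the genotypes, dose and genotype cannot be told apart in this test. Among CCS1477 libraries alone, 5 genes were called (0.0328%), of which Rpl34, Rpl34-ps1, Rpl34-ps2 and Glrp1 were also called with DMSO. Of the 161 genes above 2-fold without overlap, 144 had the same direction with CCS1477 and 94 also had no overlap. These cultures came from the same mice and are not independent of the DMSO libraries, and the same count over all genes was not made. With CCS1477 the median of all genes was −0.03. List medians there were 0.19 for primary granule, −0.18 for mast cell and basophil, −0.09 for T and NK cell and −0.08 for endothelial and stromal genes. They were 0.63 for monocyte, 0.55 for MHC class II and 0.52 for erythroid genes.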

How the data were processed

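RNA-seq of 3 D/F and 3 T/F mice with DMSO was analysed, with the 6 CCS1477 libraries of the same mice as a second view. The authors deposited TPM per Ensembl gene, a length-normalized and library-relative abundance, in 1 table. The submitters' processing notes name kallisto and mm10, the study's methods name AltAnalyze, and the annotation is not given in the sources used here. Sample records name both ribosomal depletion and an mRNA kit. Each of the 15651 genes exceeds 2.00 TPM in at least 1 library, so lower genes had been left out.

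Symbols (15252) and positions (15257) were taken from GENCODE vM21. Genes that averaged at least 1 TPM in one or both groups were tested on log2(TPM + 1) with limma 3.58.1 in R 4.3.3, two-sided, with Benjamini-Hochberg adjustment over all genes tested. A difference on this scale understates the change of low genes. Calls needed more than a 2-fold difference and an adjusted p below 0.05. Single sums had an exact permutation test. The fit was run on simulated data with independent errors and the same SD in both groups. That check does not cover the larger spread of D/F or its library 2. The members and gene lists were chosen with earlier results of these data known.

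Genes named were the targeted genes and drug targets, 12 per direction (called genes, then genes above 2-fold without overlap and with at least 5 TPM in the higher group, by p), and from each list up to 4 members with the smallest p and the first 2. Others are given as described after their values were seen, or as counter-examples within a list. A few genes that this rule or these lists hold are not reported here. Copies were sought with blastn between transcripts at 95% identity over 50% of the shorter one. Promoters came from RefSeq on GRCm38.p6. Only 10449 of 15265 tested genes had one, under the share needed for a comparison of promoter sets, which was not made. Alternatives were another pseudocount, other filters, scalings, variance models and limits, the replicate number as a block, the CCS1477 samples and leaving out each library. A Y-linked covariate and the counts without D/F library 2 were added after seeing the data. The covariate marked D/F libraries 2 and 3, so its genotype difference is that of T/F against D/F library 1 alone.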

Additional observations from a re-analysis of the deposited data

How the results depend on the processing

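The 5 called genes became 9 with a filter at 5 TPM, 9 with quantile normalization, 18 in a fit of all 4 groups and 82 with array weights, which gave D/F library 2 a weight of 0.137. Without the adjustment, 170 genes were above 2-fold at p under 0.05. Leaving out 1 library gave 4 to 9 calls, with 9 both without D/F library 1, where Y-linked genes and Tsix entered, and without D/F library 2. The count was at most 7 under the other settings, among which the fit with the Y-linked covariate sets T/F against D/F library 1 alone. With the replicate number as a block, 1 gene was called, Rpl34-ps1. Same-numbered libraries came from different mice, and their deviations correlated at 0.259, −0.241 and −0.126, so the numbers do not pair the samples. Rpl34-ps1 was called under all 18 alternatives, Rpl34 under 17, Glrp1 under 16, Rpl34-ps2 under 11 and ENSMUSG00000073101 under 8.

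Of the values of named genes, 515 kept their side and direction, 35 became called, 19 lost a call and 25 changed sign. Those that changed sign belonged to 9 genes: Bcl2, Crebbp, Ep300, Flt3, Kit, Ly6a and Myc, whose groups overlapped, and Rab3il1 and ENSMUSG00000073101. On leaving out 1 library, Flt3 ranged from −0.26 to 0.79, Kit from −0.72 to 0.05, Ly6a from −0.68 to 0.42, Bcl2 from −0.36 to 0.14, Ep300 from −0.03 to 0.07 and Crebbp from −0.18 to 0.02. With array weights Kit was 0.03, Ly6a 0.58, Bcl2 0.03 and Crebbp 0.06. With the Y-linked covariate, which sets T/F against D/F library 1 alone, Kit was 0.18, Ly6a 0.96, Bcl2 0.20, Ep300 −0.03 and Crebbp 0.10. In the CCS1477 samples Ly6a was 0.69, Myc 0.29, Rab3il1 −0.02 and ENSMUSG00000073101 1.19, and the mean per mouse of both treatments gave 0.28 for Ly6a. The cause was not tested. With 3 mice per group and unknown depth, a gene that was not called is not shown to be equal.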

Other observations

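Some genes outside the lists also separated the groups by more than 2-fold. They were picked after their values were seen, and none was called. Saa3, an acute-phase protein made by macrophages, was at 3.96, 3.94 and 11.0 TPM in D/F and at 31.9, 25.9 and 97.9 TPM in T/F. Cp, the copper oxidase ceruloplasmin, was at 12.1, 16.5 and 9.15 TPM in D/F and at 36.8, 24.9 and 40.3 TPM in T/F. Igf2bp3, an RNA-binding protein of fetal hematopoietic cells, was at 1.83, 2.39 and 1.24 TPM in D/F and at 7.51, 17.8 and 4.56 TPM in T/F.

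Mid1, an X-linked ubiquitin ligase, was at 56.5, 65.0 and 104 TPM in D/F and at 254, 170 and 277 TPM in T/F (adjusted p = 0.327, limma). Within D/F, library 1 had the lowest Mid1 level and the highest Y-linked sum, and 2 entries beside it on the X chromosome were also higher in T/F. In the other direction, Ndrg2 was at 69.1, 38.7 and 45.4 TPM in D/F and at 17.3, 19.2 and 25.6 TPM in T/F, and the transcription factor gene Dach1 was at 20.2, 20.1 and 13.02 TPM in D/F and at 9.50, 8.88 and 5.52 TPM in T/F.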
